A study of Mus musculus with 27 samples.

Results

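The phagocyte NADPH oxidase genes were followed in CD11b+ cells sorted from the prefrontal cortex (PFC) and hippocampus (HC) of C57BJ6 mice, CD11b being a surface integrin carried by microglia and other myeloid cells. The 7 genes were fixed by name (Cybb, Cyba, Ncf1, Ncf4, Rac1, Rac2 and Hvcn1), and all 7 were found by Ensembl identifier among the 53412 genes of the minocycline table and the 55421 genes of the enrichment table. All 7 passed the filter on low counts in both tables, which left 14579 and 15921 genes to test, and their lowest count in any library was 462 reads (Cybb). In the minocycline experiment the groups were mice under the CUMS protocol that also received minocycline (CUMS_M, 3 PFC and 3 HC libraries), mice under the CUMS protocol alone (CUMS, 2 PFC and 3 HC) and untreated controls (NAIVE, 2 PFC and 2 HC). In the enrichment experiment all mice were under CUMS and had either environmental enrichment (EE, 3 PFC and 3 HC) or vehicle (VEH, 3 PFC and 3 HC), so that experiment holds no unstressed group. The title of the study names CUMS as an MDD model, and minocycline is a tetracycline antibiotic often used to dampen microglial activation. Age, sex and doses are not given in the labels, nor whether a library came from 1 animal or a pool, so the p-values below measure the spread between libraries, which may be technical. The comparisons ask whether stress, minocycline or enrichment went with another level of the oxidase transcripts.

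The phagocyte oxidase moves electrons from NADPH across a membrane onto oxygen and so makes superoxide. Its membrane core is a heterodimer of the catalytic subunit NOX2 (Cybb) and p22phox (Cyba). The organiser p47phox (Ncf1) and the phosphoinositide-binding p40phox (Ncf4) are among the subunits that wait in the cytosol and join the core on activation together with a Rac GTPase, Rac1 or the blood-cell-restricted Rac2. The voltage-gated proton channel Hv1 (Hvcn1) carries protons out to balance the charge that the oxidase moves. In the brain the complex is best known from microglia, and neutrophils, monocytes and macrophages carry it at high levels.

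Library totals were 7.87 to 15.3 M counts for minocycline and 19.5 to 23.9 M for enrichment. The 10 microglia markers summed to 32900 to 41900 CPM (counts scaled to a common library size after TMM) in the minocycline table and to 25300 to 37500 CPM in the enrichment table, with none of them at 0 in any library, which fits the CD11b+ label. The 12 neutrophil markers varied most, from 150 to 4460 CPM in the minocycline table and from 254 to 2980 CPM in the enrichment table, with at most 2 and 1 of them at 0 in a library. The 8 monocyte markers summed to 57.3 to 320 CPM and 41.0 to 227 CPM, and the 8 markers of border macrophages, the macrophages of meninges and vessels, to 308 to 934 CPM and 348 to 801 CPM. In such bulk libraries a lower share of a cell type and less RNA per cell cannot be told apart.

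The Rac1 and Rac2 sequences below bear on whether these members can be told apart. Rac1 and Rac2 are close paralogs: the coding parts of Rac1-201 and Rac2-201 are 579 bases each and differ at 133 positions (77.0% identity, longest identical run 29 bases). The differences crowd into the last 90 coding bases, which hold the polybasic tail that steers the GTPase to membranes. Both stretches are printed in the coding direction, with the 36 differing bases in capitals (Rac1, chr5:143506975-143507064, minus strand; Rac2, chr15:78561908-78561997, minus strand; GRCm38, GENCODE M21).
Rac1: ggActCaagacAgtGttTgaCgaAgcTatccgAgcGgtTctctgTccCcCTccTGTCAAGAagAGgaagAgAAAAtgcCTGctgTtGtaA
Rac2: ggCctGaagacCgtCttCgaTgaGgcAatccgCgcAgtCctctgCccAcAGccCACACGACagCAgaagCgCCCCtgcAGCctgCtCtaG
Across the whole transcripts, 0 windows of 76 bases (the read length) in any of the 7 members recurred in the same direction in a transcript of another gene. Reverse complements were not searched. Exons of Rac1, Hvcn1 and Ncf1 do overlap a gene on the opposite strand, over 51.4% of exon bases for Rac1 (Daglb), 44.2% for Hvcn1 (Tctn1) and 11.1% for Ncf1 (Gtf2ird2). The library kit keeps strand, but the strand setting of the counting step is not given in the sources used here. For these members reads of the partner may therefore be included, or reads from the shared bases left out. Their levels may be too high or too low.

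Cybb was the most and Ncf1 the least variable member between libraries of a group, so their promoters are shown, 250 bases before to 50 after the RefSeq start (GRCm38.p6, gene strand). Of the 7 members 3 had an entry in the promoter table (Cybb, Cyba and Ncf1). The bases GAGGAA, a form of the site bound by the myeloid factor PU.1, or their reverse complement TTCCTC are in capitals. Other forms of that site were not searched or marked. The Cybb window (chrX:9469275-9469574, minus strand) holds 1 match, beginning 9 bases after the start, and the Ncf1 window (chr5:134229576-134229875, minus strand) and the Cyba window hold 0. The same letters occur on either strand in 28.3% of the 32851 promoters of this length, and a match is only a description of the letters. Whether a match goes with the spread between libraries was not tested.
Cybb: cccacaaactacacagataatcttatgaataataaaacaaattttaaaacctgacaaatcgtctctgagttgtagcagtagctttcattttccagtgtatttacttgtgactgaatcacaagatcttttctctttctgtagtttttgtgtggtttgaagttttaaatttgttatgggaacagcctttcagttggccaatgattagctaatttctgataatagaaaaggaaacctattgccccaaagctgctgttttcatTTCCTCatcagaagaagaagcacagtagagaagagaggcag
Ncf1: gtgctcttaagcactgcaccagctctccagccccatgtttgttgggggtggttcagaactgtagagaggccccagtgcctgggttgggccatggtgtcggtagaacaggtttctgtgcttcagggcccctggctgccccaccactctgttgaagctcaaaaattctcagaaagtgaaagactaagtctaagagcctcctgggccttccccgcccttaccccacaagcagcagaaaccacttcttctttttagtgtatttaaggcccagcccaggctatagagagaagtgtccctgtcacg

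No member was called in any comparison: 0 of 7 passed an adjusted p of 0.05 (edgeR quasi-likelihood test, Benjamini-Hochberg over all tested genes) in each of the 8 contrasts within a region, the 2 contrasts of regions and the 3 contrasts that set a treatment effect in HC against that in PFC. The DESeq2 Wald test also called 0 of 7 in each of the 13. At an unadjusted p under 0.05 there were 2 members in PFC CUMS against NAIVE (Hvcn1 and Rac1), 1 in HC EE against VEH (Cybb) and 0 in each other contrast; of all tested genes 13.7% and 10.4% were past that level in these contrasts. The background of adjusted calls was low as well: of all tested genes 0.816% were called in PFC CUMS against NAIVE, 0% in HC CUMS against NAIVE, 0.0206% in PFC CUMS_M against CUMS, 0.00686% in HC CUMS_M against CUMS, 0.0892% in PFC CUMS_M against NAIVE and 0% in HC CUMS_M against NAIVE. It was 0% in both regions for EE against VEH. For the effect in HC minus that in PFC it was 0% for CUMS, 0.00686% for minocycline and 0% for EE. A missed threshold does not show equal levels, and the intervals below say how large a difference the data leave room for.

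**Figure D1:**
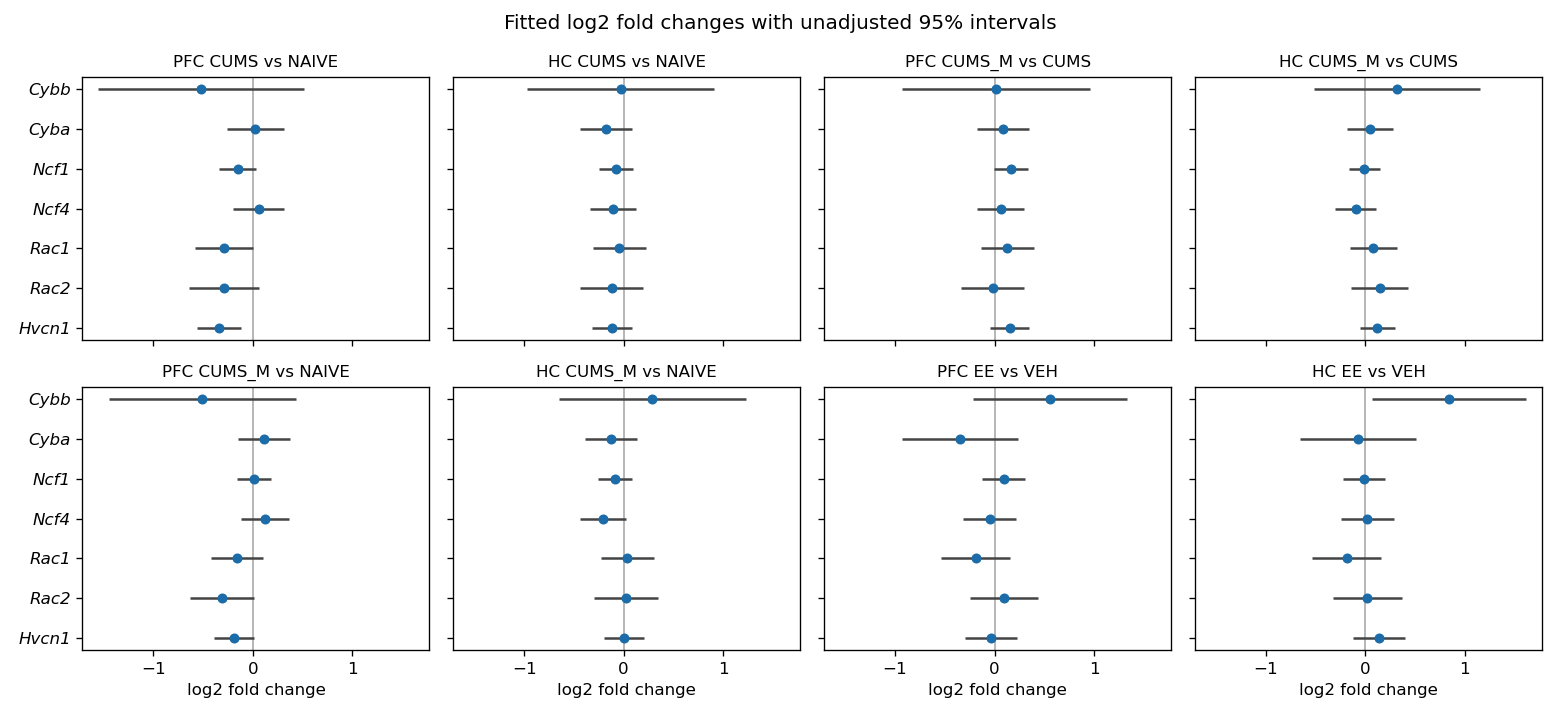
Fitted log2 fold changes of the 7 members (points) with unadjusted 95% intervals (lines) in the 8 treatment contrasts, 1 panel each, the first-named group over the second. Cybb has the widest interval in each of the 8 panels; the interval excludes 0 for Hvcn1 and Rac1 in PFC CUMS vs NAIVE and for Cybb in HC EE vs VEH.

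Per kilobase of exon the membrane subunit p22phox was the most abundant transcript and its partner NOX2 the least. In the minocycline table the median CPM per kilobase over 15 libraries was 381 for Cyba (lowest 337, highest 476), 198 for Ncf1 (183 to 216), 133 for Rac1 (105 to 155), 118 for Hvcn1 (102 to 132), 65.6 for Rac2 (48.0 to 83.4), 37.9 for Ncf4 (31.2 to 41.7) and 16.9 for Cybb (9.47 to 24.0). The ranges of Rac1 and Hvcn1 overlap, and every other pair of neighbours in this order is separate in all 15 libraries. In the 12 libraries of the enrichment table the medians were 257 for Cyba, 177 for Ncf1, 94.8 for Rac1, 49.6 for Rac2, 41.5 for Hvcn1, 39.5 for Ncf4 and 9.78 for Cybb. There the ranges of Cyba and Ncf1 overlap slightly (200.1 to 483 and 169 to 202), and those of Rac2 (41.8 to 65.4), Hvcn1 (33.8 to 48.2) and Ncf4 (29.8 to 44.8) overlap one another. With the length of the longest coding transcript in place of all exons, a choice made after seeing the data, Cyba, Ncf1 and Cybb kept their ranks in both tables, Rac1 and Hvcn1 changed places in the minocycline table (144 and 150 per kilobase), and Ncf4 (54.5), Hvcn1 (52.7) and Rac2 (50.7) came in that order in the enrichment table.

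**Figure D2:**
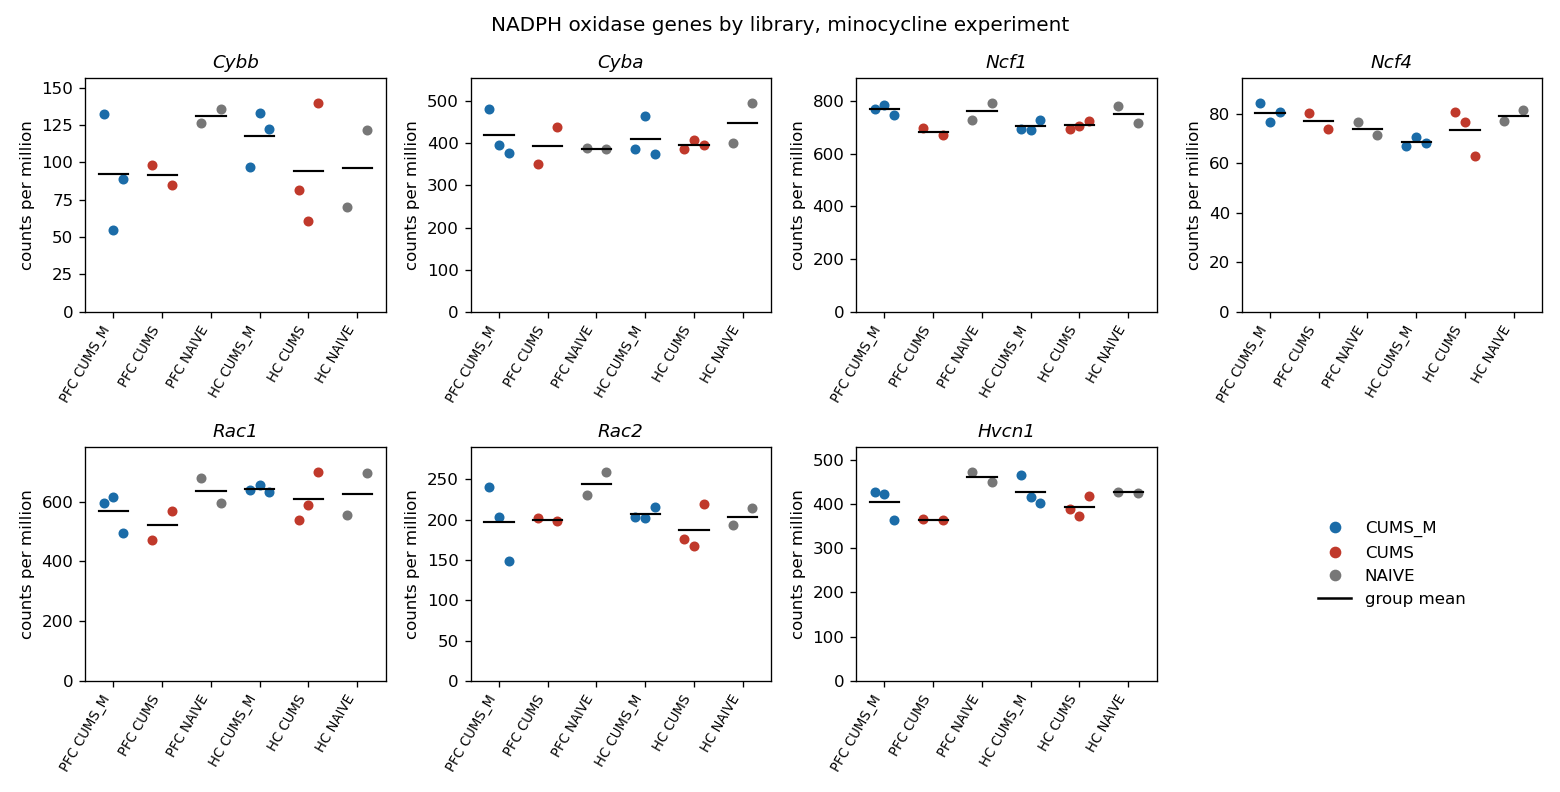
CPM of each member in each library of the minocycline experiment (points; black lines are group means; axes start at 0). Cybb ranges from 55.0 to 139.5 CPM, and within a region the groups overlap except that PFC CUMS lies below PFC NAIVE, while Ncf1 stays between 671 and 790 CPM in all 15 libraries.

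Of the catalytic subunit, PFC CUMS libraries held 98.2 and 84.7 CPM of Cybb, against 126 and 136 CPM in PFC NAIVE. Both stressed libraries lay below both controls, but the fitted difference was well inside its error (log2 fold change -0.52 ± 0.46 SE, interval -1.55 to 0.52, edgeR adjusted p = 0.663). In HC the CUMS libraries held 81.5, 60.9 and 139.5 CPM and the NAIVE libraries 70.4 and 122 CPM, so the groups overlapped (log2 fold change -0.03 ± 0.42). Under minocycline PFC CUMS_M libraries ran from 55.0 to 133 CPM, a range that covers both PFC CUMS libraries (0.01 ± 0.42), and HC CUMS_M libraries held 96.7, 133 and 122 CPM, within the range of HC CUMS (0.32 ± 0.37, edgeR adjusted p = 1). CUMS_M against NAIVE gave -0.51 ± 0.42 in PFC and 0.29 ± 0.42 in HC.

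The proton channel came closest to the threshold under stress. Hvcn1 stood at 365.7 and 363.4 CPM in PFC CUMS, against 471.8 and 450.9 CPM in PFC NAIVE. The groups did not overlap and the log2 fold change was -0.34 ± 0.10 (interval -0.56 to -0.12, edgeR adjusted p = 0.145; DESeq2 adjusted p = 0.0545). It lay between -0.29 and -0.38 with any one library left out. PFC CUMS_M libraries held 427, 423 and 365 CPM, 1 of them at the CUMS level and none as high as NAIVE (0.15 ± 0.10 against CUMS, -0.19 ± 0.10 against NAIVE). In HC, CUMS libraries held 388, 373 and 419.5 CPM, against 428 and 426 CPM in NAIVE. These groups did not overlap either, at a smaller difference (-0.12 ± 0.09, edgeR adjusted p = 0.9999), and HC CUMS_M libraries ran from 402 to 465 CPM, around the NAIVE level (0.0030 ± 0.10). The difference of the CUMS effect between regions was 0.22 ± 0.14 (edgeR adjusted p = 0.899). Tctn1, whose exons overlap Hvcn1 on the other strand, had a log2 fold change of 0.25 ± 0.18 in PFC CUMS against NAIVE.

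Both GTPases also had lower values in PFC CUMS, short of the threshold. Rac1 had 472 and 570 CPM in PFC CUMS, against 678 and 597 CPM in PFC NAIVE (-0.29 ± 0.14, edgeR adjusted p = 0.361), and Rac2 had 202 and 199 CPM, against 231 and 259 CPM (-0.29 ± 0.17, edgeR adjusted p = 0.465). Neither pair of groups overlapped, and neither difference passed. Rac1 rested in part on single libraries: its log2 fold change was -0.16 without PFC CUMS 1 and -0.43 without PFC CUMS 2. PFC CUMS_M libraries held 149 to 240 CPM of Rac2, the lowest and the highest level among PFC libraries under CUMS (-0.31 ± 0.15 against NAIVE, edgeR adjusted p = 0.367). In HC the CUMS against NAIVE values were -0.04 ± 0.13 for Rac1 and -0.12 ± 0.15 for Rac2, with overlapping groups.

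The organiser Ncf1 had the narrowest range of the 7 members. It had 697 and 671 CPM in PFC CUMS, against 729 and 790 CPM in PFC NAIVE (-0.15 ± 0.09, edgeR adjusted p = 0.475). PFC CUMS_M libraries held 769.5, 785 and 747 CPM, all above both PFC CUMS libraries (0.17 ± 0.08, interval -0.01 to 0.34, edgeR adjusted p = 0.931). Nothing of that kind was seen in HC, where CUMS_M libraries held 691 to 726 CPM and CUMS libraries 694 to 725.5 CPM (-0.01 ± 0.07); the difference of the minocycline effect between regions was -0.18 ± 0.11 (edgeR adjusted p = 0.999). Cyba ranged from 350 to 494 CPM and Ncf4 from 63.0 to 84.3 CPM over the 15 libraries, with log2 fold changes between -0.18 and 0.11 for Cyba and between -0.21 and 0.12 for Ncf4 in the 6 contrasts.

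Read as a set, 5 of 7 members had PFC CUMS and NAIVE libraries that did not overlap, all 5 lower in CUMS (Cybb, Ncf1, Rac1, Rac2 and Hvcn1), and the median log2 fold change of the 7 was -0.29 against 0.02 over all tested genes. With 2 libraries against 2, however, 43.6% of all tested genes had groups that did not overlap. In the other contrasts of this experiment the number without overlap was 1 of 7 (HC CUMS against NAIVE, background 20.4%), 1 of 7 (PFC CUMS_M against CUMS, 21%), 0 of 7 (HC CUMS_M against CUMS, 10.3%), 1 of 7 (PFC CUMS_M against NAIVE, 25.2%) and 1 of 7 (HC CUMS_M against NAIVE, 17.7%). Most marker sums stood apart in the same PFC comparison, some lower and some higher in CUMS. Neutrophil markers summed to 1640 to 2180 CPM in PFC CUMS and 3090 to 4460 CPM in PFC NAIVE, monocyte markers to 146 to 199 and 236 to 306 CPM, microglia markers to 33600 to 36500 and 39100 to 41900 CPM, and B cell markers to 480 to 503 and 522 to 561 CPM. Single markers with a log2 fold change above 0 were 1 of 12 neutrophil, 1 of 8 monocyte, 2 of 10 microglia and 2 of 5 tested B cell markers. In PFC NAIVE 1, 3 of 6 B cell markers had 0 counts. Higher in CUMS were the sums of the 8 astrocyte markers (682 to 734 and 216 to 251 CPM, 6 markers called), the 8 endothelial and mural markers (160 to 202 and 78.8 to 98.0 CPM, 3 called) and the 8 border macrophage markers (594 to 755 and 417 to 457 CPM, 0 called). With a marker score as a covariate the Hvcn1 value was -0.33 (neutrophil), -0.31 (monocyte) and -0.29 (border macrophage), and the Rac1 value -0.28, -0.22 and -0.28, the last pair of scores chosen after seeing the data. The part of the astrocyte, endothelial, B cell and microglia differences in these values was not tested. The PFC values of Cybb, Ncf1 and Rac2 with these scores are not given here. In HC CUMS against NAIVE, Cybb moved to the other side of 0 with the neutrophil (0.24) and monocyte (0.23) scores. Rac2 did so as well (0.067 and 0.0050).

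**Figure D3:**
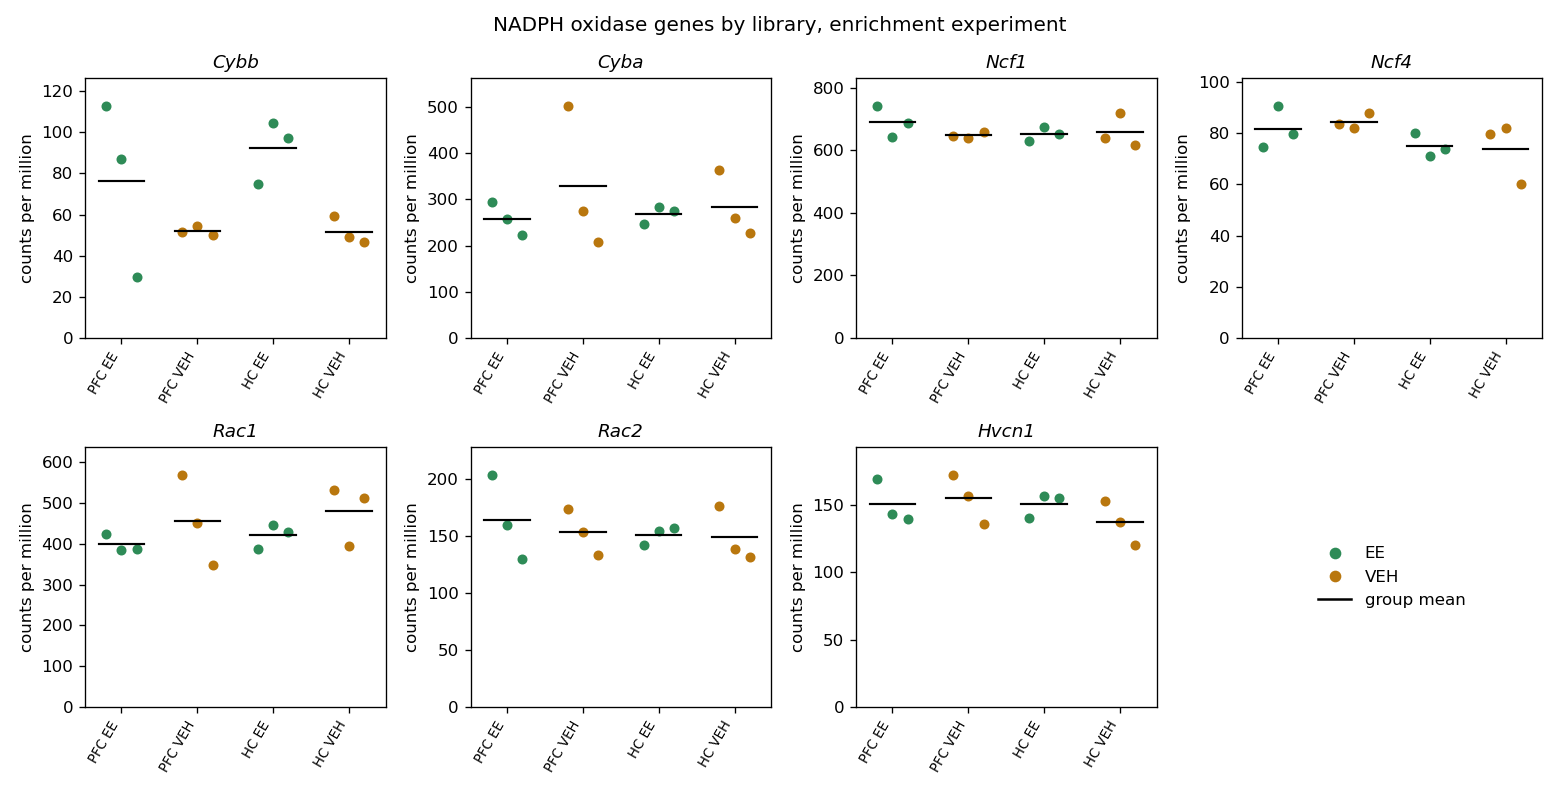
CPM of each member in each library of the enrichment experiment (points; black lines are group means; axes start at 0). HC EE lies above HC VEH for Cybb in all libraries; PFC EE 1 and 2 lie above all PFC VEH libraries and PFC EE 3 below them, and the highest Cyba and Rac1 levels are in PFC VEH 1.

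The largest fitted change of any member was that of Cybb under enrichment. HC EE libraries held 74.8, 105 and 97.2 CPM of this catalytic subunit, against 59.1, 48.9 and 46.6 CPM in HC VEH. All HC EE libraries lay above all HC VEH libraries, as was the case for 16% of all tested genes in either direction, and Cybb was the 1 of 7 members without overlap. The log2 fold change was 0.84 ± 0.35 (interval 0.06 to 1.62, edgeR adjusted p = 0.438), and it lay between 0.74 and 0.98 with any one library left out. It missed the threshold in the fit of all 4 groups and with DESeq2 (adjusted p = 0.182). A fit of the HC EE and VEH libraries alone gave 0.83 ± 0.15 and called Cybb (edgeR adjusted p = 0.0205), among 223 called genes where the fit of all groups called 0. In PFC the EE libraries held 113, 86.8 and 29.8 CPM, against 51.6, 54.5 and 49.9 CPM in VEH. Of the PFC EE libraries 2 lay above and 1 below all VEH libraries, and the fitted change was 0.56 ± 0.35 (edgeR adjusted p = 0.986), or 0.94 ± 0.16 without PFC EE 3 (edgeR adjusted p = 0.206) and 0.15 ± 0.32 without PFC EE 1. The EE effect in HC minus that in PFC was 0.28 ± 0.50 for Cybb (edgeR adjusted p = 0.998).

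Marker levels of other cells, myeloid and not, differed between HC EE and HC VEH as well. The border macrophage sum was 581 to 801 CPM in HC EE and 348 to 450 CPM in HC VEH, without overlap, and all 8 markers had a log2 fold change above 0 (median 0.81) though none was called. The monocyte sum was 112 to 167 CPM in HC EE and 61.8 to 107 CPM in HC VEH, also without overlap. Of the 8 monocyte markers 6 were above 0 (median log2 fold change 0.37) and none was called. The neutrophil sum overlapped (501 to 1180 and 254 to 2160 CPM), with 6 of 12 markers above 0. The microglia sum overlapped as well (26700 to 32900 and 27400 to 34700 CPM), with 4 of 10 markers above 0 (median log2 fold change -0.11). So did the endothelial and mural sum (122 to 145 and 90.2 to 138 CPM), with 8 of 8 above 0 (median 0.45). The part of either in the Cybb value was not tested. The astrocyte sum was 612 to 819 CPM in HC EE and 419 to 533 CPM in HC VEH (8 of 8 markers above 0, median log2 fold change 0.997), and the oligodendrocyte sum 434 to 770 and 234 to 296 CPM (6 of 6 above 0, median 1.04), both without overlap and with 0 markers called; the part of these in the Cybb value was not tested. Over all 12 libraries of the experiment the 6 highest in Cybb were the 6 highest in monocyte markers, in the same order, and PFC EE 3 was lowest in both (41.0 CPM of monocyte markers). With a marker score as a covariate the HC log2 fold change of Cybb was 0.74 ± 0.24 (neutrophil), 0.36 ± 0.17 (monocyte) and 0.20 ± 0.48 (border macrophage), the last pair of fits chosen after seeing the data. In PFC it was 0.10 ± 0.27, -0.12 ± 0.17 and 0.32 ± 0.34. Cybb is itself expressed by monocytes, macrophages and neutrophils, and whether it differed within microglia was not tested.

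**Figure D4:**
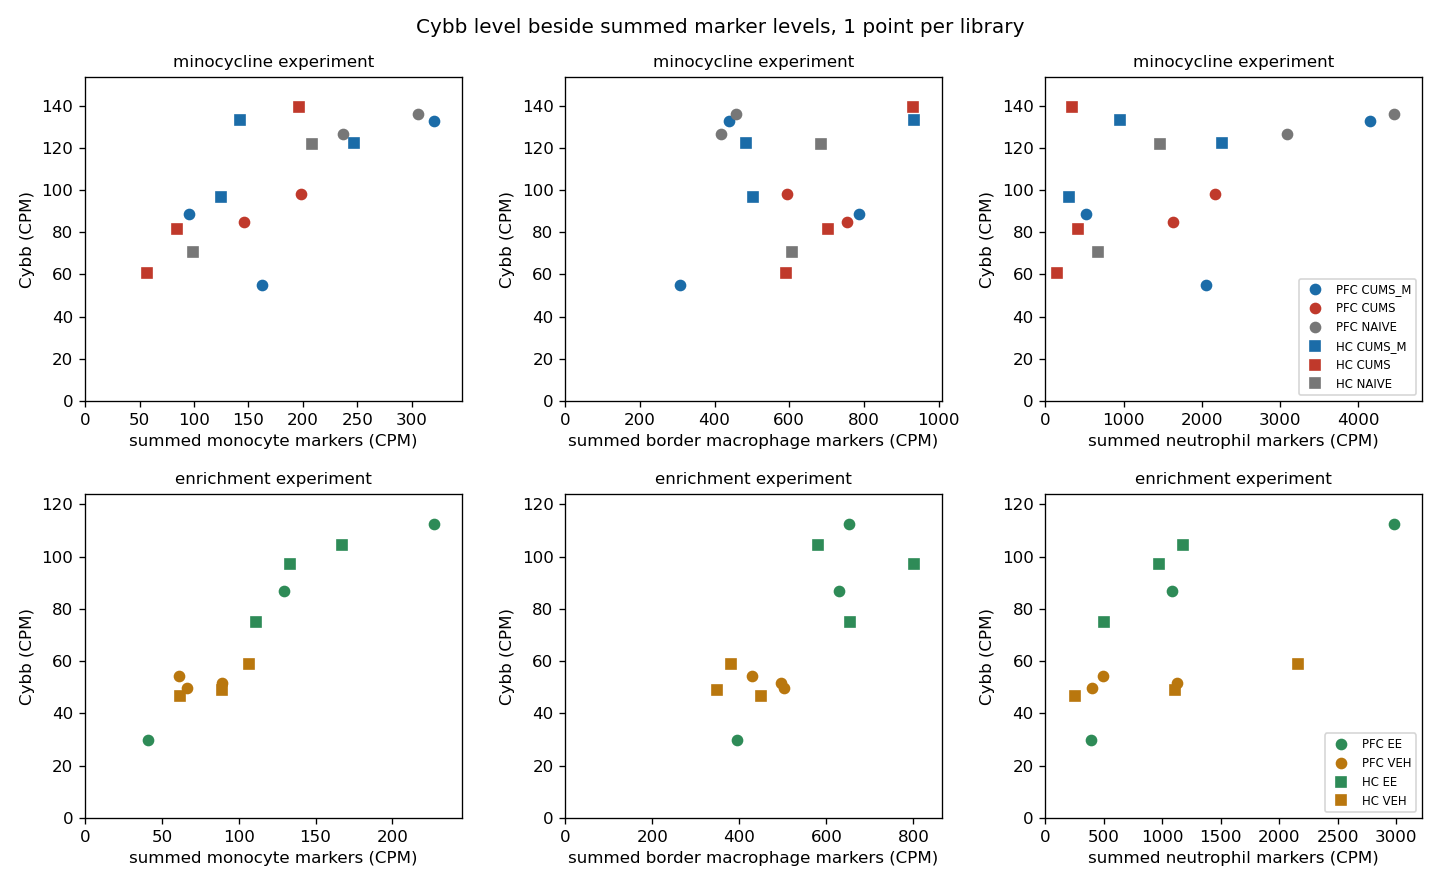
Cybb CPM (vertical) against the summed CPM of monocyte, border macrophage and neutrophil markers (horizontal), 1 point per library, minocycline experiment above and enrichment experiment below; circles are PFC and squares HC. In the enrichment experiment the 6 libraries highest in Cybb are the 6 highest in monocyte markers, while in the minocycline experiment HC CUMS 3, the highest in Cybb at 139.5 CPM, is in place 7 for monocyte markers.

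The other 6 members had overlapping groups under enrichment. In HC, EE and VEH libraries overlapped for Cyba (-0.07 ± 0.27), Ncf1 (-0.01 ± 0.10), Ncf4 (0.02 ± 0.12), Rac1 (-0.19 ± 0.16), Rac2 (0.02 ± 0.16) and Hvcn1 (0.14 ± 0.12). In PFC the groups of all 7 members overlapped (background without overlap 9.19%). Cyba had 294, 257 and 223 CPM in PFC EE, against 501, 274 and 208 CPM in PFC VEH (-0.35 ± 0.27, edgeR adjusted p = 0.986), and Rac1 had 424, 386 and 388.5 CPM, against 568, 450.4 and 348 CPM (-0.19 ± 0.16). For both genes PFC VEH 1 was the highest and PFC VEH 3 the lowest of the 12 libraries, and the same libraries had the highest and the lowest microglia sum (37500 and 25300 CPM). Without PFC VEH 1 the Cyba value was 0.10 ± 0.19, on the other side of 0. Ncf1, in contrast, held 741, 643.5 and 687 CPM in PFC EE, against 647, 640 and 658 CPM in PFC VEH (0.09 ± 0.10).

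Between the regions 0 of 7 members were called in either table. HC against PFC, averaged over treatments, gave log2 fold changes from -0.10 (Rac2) to 0.12 (Rac1) in the minocycline table, where 5.1% of all tested genes were called, and from -0.16 (Ncf4) to 0.13 (Cybb) in the enrichment table, where 0% were. HC and PFC libraries overlapped for each member, as they did for all but 1.25% and 0.0942% of the tested genes. In the minocycline table the intervals of all 7 lay within a 2-fold difference either way, the widest being that of Cybb (-0.56 to 0.52); the same held in the enrichment table (Cybb, -0.42 to 0.68). For the treatment effects the interval of Cybb reached past 2-fold in 6 of the 8 contrasts, while those of Ncf1, Ncf4, Rac1, Rac2, Hvcn1 and Cyba did not in any.

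Replicate spread set the members apart from one another. The within-group SD of log2 CPM was 0.47 for Cybb in the minocycline table and 0.53 in the enrichment table, above that of 98.7% and 98.9% of the genes within 1.5-fold of its mean level. For Ncf1 it was 0.05 and 0.08, and only 1.04% and 9.22% of like genes had a lower SD. Rac2 (0.20 and 0.22) stood above 88% and 75.4% of like genes, and Cyba (0.16 and 0.39) above 73.4% and 89.7%. From the lowest to the highest library Cybb spanned 2.54-fold in the minocycline table and 3.78-fold in the enrichment table, against 1.18-fold and 1.20-fold for Ncf1. Thus 2 subunits of the same complex had the loosest and the tightest transcript levels among the members.

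**Figure D5:**
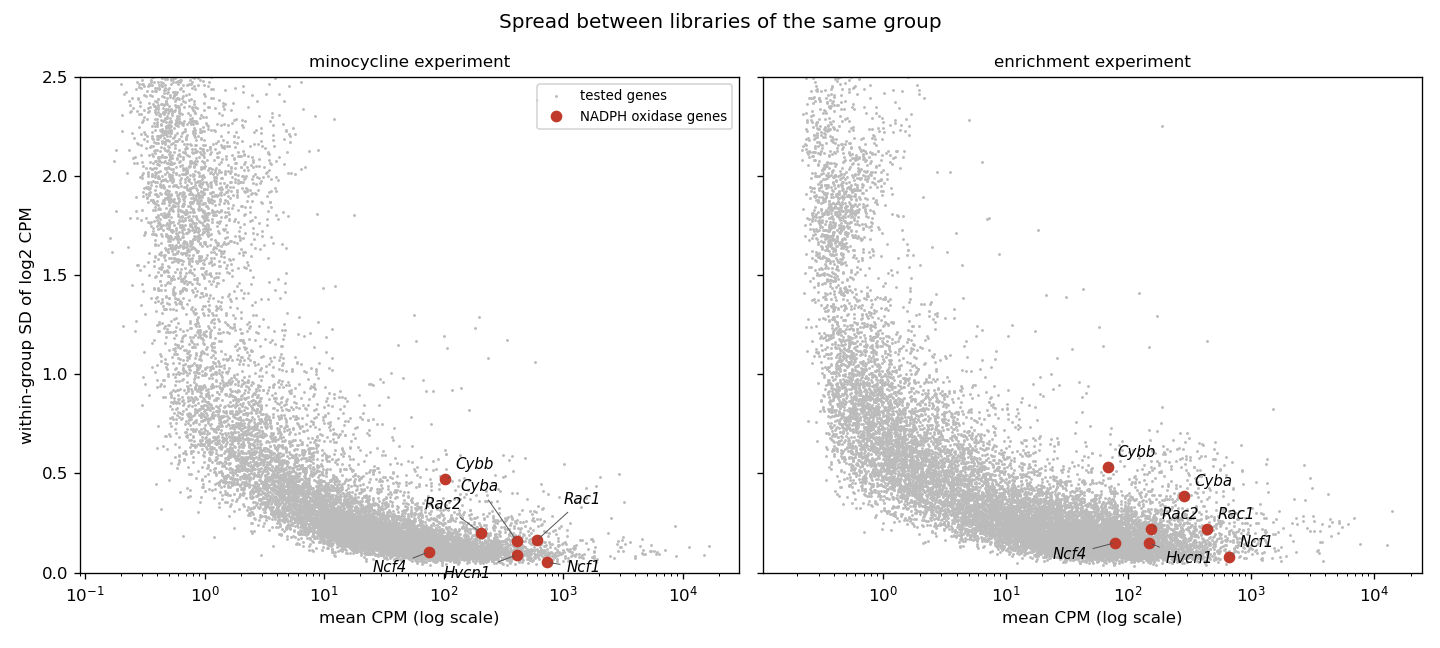
Within-group SD of log2 CPM (vertical) against mean CPM (horizontal, log scale) for all tested genes (grey) and the 7 members (red), 1 panel per experiment; the axis ends at 2.5, with 519 grey points above it. Cybb lies above and Ncf1 below most genes of like level in both panels.

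Of the other members Rac2 followed Cybb most closely from library to library. Over the 15 and 12 libraries Pearson's r of log2 CPM with Cybb was 0.64 and 0.62 for Rac2, 0.40 and 0.47 for Hvcn1, 0.24 and 0.17 for Cyba, 0.43 and -0.04 for Rac1, -0.04 and 0.15 for Ncf1, and -0.31 and -0.09 for Ncf4. By rank Rac2 came closer, with a Spearman's rho of 0.73 and 0.75. Among 14216 genes tested in both tables the 5 most like Cybb by the smaller of both Pearson's r were Napsa (0.84 and 0.85), an aspartic protease, Tbc1d2 (0.87 and 0.83), a Rab GTPase-activating protein, Krt80 (0.82 and 0.92), a keratin, Aldh2 (0.82 and 0.85), the mitochondrial aldehyde dehydrogenase, and Cmpk2 (0.81 and 0.85), a mitochondrial nucleotide kinase. By rank Tbc1d2 stood no closer than Rac2 (rho 0.73 and 0.75). Cmpk2 was below Rac2 in the minocycline table (rho 0.68) and above it in the enrichment table (0.80). These libraries share treatments, depth and cell makeup, and the values are given as a description.

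The other genes of the pathway gave few calls. Of 13 other subunits and assembly factors 6 passed the filter, and 0 were called in any contrast. Cybc1, the chaperone of the NOX2 and p22phox dimer, had log2 fold changes between -0.15 and 0.18 in the 8 treatment contrasts. Of 15 genes of activating signalling (Vav exchange factors, protein kinases C, phosphoinositide kinases and Rac regulators) 15 were tested and 0 called in every contrast; their median log2 fold change ran from -0.09 (PFC CUMS against NAIVE) to 0.10 (HC CUMS_M against CUMS). Of 20 genes that handle superoxide and peroxide 20 were tested, and 0 were called in any treatment contrast. Cytosolic Sod1 and mitochondrial Sod2, which convert superoxide to peroxide, and the catalase Cat had values between -0.15 and 0.18 there. In HC against PFC of the minocycline experiment 2 of the 20 were called, both higher in HC: Sod3, the extracellular superoxide dismutase (1.72 ± 0.41, edgeR adjusted p = 0.0215), and Nqo1, a quinone reductase (edgeR adjusted p = 0.037). Both were scarce, at 4.64 to 5.71 CPM of Sod3 in the HC groups and 0.801 to 3.77 CPM in the PFC groups (group means), and Nqo1 at 0.921 to 1.35 CPM in HC and 0 to 0.772 CPM in PFC. Both PFC NAIVE libraries had 0 counts of Nqo1, so no fold is given for it, and in CUMS its group means were 0.921 CPM in HC and 0.772 CPM in PFC. In the enrichment table the HC against PFC log2 fold change was 0.37 ± 0.39 for Sod3 and 0.10 ± 0.55 for Nqo1.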

How the data were processed

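RNA of CD11b+ cells sorted from PFC and HC was sequenced as stranded, polyA-selected paired reads, per the labels, in 27 libraries of 10 groups. The authors deposited raw counts per gene, 1 table per experiment. Per the submitters' processing notes Trimmomatic 0.36, STAR 2.6.1b, Picard 2.17.1, featureCounts 1.5.3 and DESeq2 1.24.0 were used with mm10/GRCm38; the annotation release, strand setting and duplicate handling are not given in the sources used here.

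Genes were matched by identifier to GENCODE M21 (GRCm38). The tables were fitted separately with edgeR 4.0.16 in R 4.3.3 (limma 3.58.1): filterByExpr (minimum count 10, total 15), TMM, 1 mean per group over both regions, robust quasi-likelihood F-tests, Benjamini-Hochberg over all tested genes, and a threshold of 0.05. CPM are counts scaled by effective library size (TMM); ± is the SE of a log2 fold change unless SD is named, and intervals are 95% without adjustment. Log2 CPM for correlations used a prior count of 2. The within-group SD used log2 CPM without that prior count, with at most a small constant added to CPM. Named genes were the 7 members in every contrast, called genes of 3 pathway lists, Cybc1, Sod1, Sod2 and Cat, and the 5 genes most like Cybb; 1 further gene of the rule is not reported here. The members and lists were chosen with earlier results of these data known.

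The alternatives were DESeq2 1.42.0 size factors and Wald test, no filter, a replicate block, marker scores as covariates, a fit of only the compared groups, and leaving out each library. The fit was also run on simulated data for PFC CUMS vs NAIVE and HC EE vs VEH, with the spread typical of genes of like level. Cybb has a larger spread than that, and no result here rests on the simulation. Replicates differed by more than sampling noise (chi-square per degree of freedom 6.19 to 116). The labels tie no replicate numbers to animals or days. Deviations of equal numbers correlated above 0.1 in every pair only for PFC EE and VEH (r = 0.198 to 0.359), so these may be pairs, as a weak hint from the data. Single values elsewhere were as large without a common sign, from -0.278 (HC EE and PFC EE) to 0.438 (HC VEH and PFC VEH). Figures used matplotlib 3.10.9.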

Additional observations from a re-analysis of the deposited data

How the results depend on the processing

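Of 200 counts of called members under the alternatives 199 stayed at 0; the exception was the fit of HC EE and VEH alone, which called 1 member (Cybb). Of 1400 single member values 111 had the other sign, all of them short of the threshold, and 1 was newly called (that same Cybb value); the cause was not tested. The largest fitted value that changed sign was 0.56 (Cybb, PFC EE vs VEH). The monocyte and border macrophage covariates and the length of the longest coding transcript were chosen after seeing the data.

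With the border macrophage score as a covariate these were Cyba -0.043 in PFC CUMS vs NAIVE, Cybb -0.11 and Rac1 -0.11 in the regional difference of the EE effect, Hvcn1 -0.013 and Rac2 -0.0037 in HC CUMS_M vs NAIVE, Ncf1 0.045 and Rac2 -0.24 in HC EE vs VEH. With the monocyte score these were Cybb 0.23, Rac1 0.026 and Rac2 0.0050 in HC CUMS vs NAIVE, Cybb 0.30 and Rac2 0.066 in HC vs PFC (minocycline table), Cybb -0.12 and Rac2 -0.11 in PFC EE vs VEH, Rac1 -0.0056 in the regional difference of the EE effect, Rac2 -0.16 in HC EE vs VEH. With the neutrophil score these were Cyba -0.0040 and Rac2 -0.038 in HC CUMS_M vs CUMS, Cybb 0.24, Rac1 0.00042 and Rac2 0.067 in HC CUMS vs NAIVE, Cybb 0.31, Ncf1 0.0030 and Rac2 0.14 in HC vs PFC (minocycline table), Rac2 0.075 in the regional difference of the EE effect, Rac2 -0.0091 in HC EE vs VEH, Rac2 0.00098 in PFC CUMS_M vs CUMS, Rac2 -0.084 in PFC EE vs VEH, Rac2 -0.039 in the regional difference of the minocycline effect. With the replicate block these were Cybb -0.031 and Rac2 0.15 in PFC CUMS_M vs CUMS, Hvcn1 -0.00055 and Rac2 -0.051 in HC CUMS_M vs NAIVE, Rac1 -0.017 in the regional difference of the EE effect. With no filter these were Ncf1 0.0035 in HC EE vs VEH. Leaving out each library in turn gave ranges that crossed 0 for Cybb -0.34 to 0.27, Cyba -0.067 to 0.26, Rac1 -0.0020 to 0.27 and Rac2 -0.19 to 0.15 in PFC CUMS_M vs CUMS, Cyba -0.0024 to 0.18 and Ncf1 -0.039 to 0.068 in PFC CUMS_M vs NAIVE, Cybb -0.17 to 0.097 in HC vs PFC (minocycline table), Cyba -0.22 to 0.11, Rac1 -0.20 to 0.081, Rac2 -0.016 to 0.33 and Hvcn1 -0.11 to 0.018 in the regional difference of the minocycline effect, Cyba -0.14 to 0.18 in PFC CUMS vs NAIVE, Cyba -0.058 to 0.099, Ncf1 -0.037 to 0.0090 and Rac1 -0.015 to 0.19 in HC CUMS_M vs CUMS. They also did for Cybb -0.051 to 0.75, Cyba -0.27 to 0.038, Rac1 -0.11 to 0.22, Rac2 -0.051 to 0.11 and Hvcn1 -0.060 to 0.055 in HC CUMS_M vs NAIVE, Cybb -0.43 to 0.44, Cyba -0.31 to 0.0016 and Rac1 -0.18 to 0.15 in HC CUMS vs NAIVE, Cyba -0.59 to 0.098, Ncf4 -0.12 to 0.0064, Rac1 -0.35 to 0.0019, Rac2 -0.092 to 0.24 and Hvcn1 -0.13 to 0.045 in PFC EE vs VEH, Cybb -0.061 to 0.33, Cyba -0.20 to 0.15, Ncf1 -0.063 to 0.00087, Rac1 -0.0070 to 0.17 and Rac2 -0.15 to 0.014 in HC vs PFC (enrichment table), Cybb -0.096 to 0.68, Cyba -0.18 to 0.52, Ncf4 -0.058 to 0.15, Rac1 -0.20 to 0.17 and Rac2 -0.22 to 0.10 in the regional difference of the EE effect, Cyba -0.21 to 0.14, Ncf1 -0.059 to 0.054, Ncf4 -0.11 to 0.10 and Rac2 -0.059 to 0.15 in HC EE vs VEH.

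The number of all genes called depended far more on the setting. PFC CUMS vs NAIVE had 119, against 402 with no filter, 348 with DESeq2, 63 with the replicate block, 47 with the border macrophage score, 26 in a fit of its groups alone and 13 to 540 with a library left out (540 without PFC NAIVE 2). PFC CUMS_M vs NAIVE had 13 (0 to 610 with a library left out, the highest without PFC NAIVE 2; 268 with no filter, 143 with DESeq2). With the counts with no filter and then with DESeq2 in brackets, PFC CUMS_M vs CUMS had 3 (170, 85; 68 in its groups alone), HC CUMS_M vs CUMS 1 (31, 36), HC EE vs VEH 0 (278, 441; 73 with the block, 101 with the neutrophil score), PFC EE vs VEH 0 (19, 17), the regional difference of the CUMS effect 0 (57, 27; up to 140 with a library left out) and HC vs PFC of the minocycline experiment 744 (1191, 1173; 113 with the neutrophil score). The block changed no call of a member. Groups of 2 or 3 libraries limit the precision, most of all for Cybb, whose intervals leave room for changes past 2-fold.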

Other observations

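Hvcn1 stood apart between the tables, which were made in separate experiments and share no group, so the values are a description without a test. The tables list different numbers of genes (55421 for enrichment, 53412 for minocycline), and the annotation release and strand setting behind each are not given in the sources used here, so a difference in counting and a difference in transcript level cannot be told apart. Its median was 148 CPM in the 12 enrichment libraries and 419.5 CPM in the 15 minocycline libraries, a log2 ratio of -1.50. The background was 6815 genes tested in both tables whose median CPM, averaged over the tables, was at least 20. Of these, 20 (0.293%) had a lower ratio. The median ratio was 0.08 and the 5th and 95th percentiles were -0.48 and 0.63. The ranges did not overlap, at 120.4 to 172 and 363 to 472 CPM. Cybb (-0.79), Cyba (-0.57), Rac1 (-0.49) and Rac2 (-0.40) were also lower in the enrichment table. Ncf1 (-0.16) was lower by less, with 22.9% of the genes below it, and Ncf4 (0.06) was near the median gene. The genes that overlap members on the opposite strand had ratios of -0.17 (Tctn1, beside Hvcn1), -0.55 (Daglb, beside Rac1) and 0.93 (Gtf2ird2, beside Ncf1).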
